A study of Mus musculus with 5 samples.

Results

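The S100 genes encode small calcium-binding proteins. The 8 described here were chosen by symbol from the deposited gene lists: S100a4, S100a6, S100a8, S100a9, S100a10, S100a11, S100a13 and S100a14. They are 8 of the 27998 genes measured in single cells of mouse skin and together held 149287 UMIs (unique molecular identifiers, each standing for 1 captured RNA molecule), or 0.886% of all UMIs in the cells kept. Live dermal cells of C57BL/6 mice were sorted for CD45, the surface protein shared by white blood cells, and were sequenced from droplets by the 10x Genomics 3' method. There was 1 library for each of 5 labels: P45, P50, P63 and P80, read here as postnatal days of telogen, when hair follicles rest, plus P50_Depil5D, read as skin 5 days after depilation. The labels do not say whether the depilated skin was collected or depilated at P50, nor do they give the sex or the number of mice. With 1 library per label, a difference between labels has no replicate check. Cell classes can be compared within each of the 5 libraries.

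S100 proteins bind calcium through EF-hand loops, usually act as dimers, and expose a surface that grips partner proteins once calcium is bound. S100a8 and S100a9 form calprotectin, a metal-binding heterodimer that fills the cytoplasm of neutrophils and is also made by monocytes and by stressed epidermis. S100a4 is known for binding non-muscle myosin in motile cells, S100a10 for its tetramer with annexin A2, and several other members for annexin binding. In mouse, all 8 genes lie on chromosome 3, in the region known as the epidermal differentiation complex and its flank.

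By the GENCODE vM21 annotation of GRCm38 (mm10), S100a13 (chr3:90514435-90524581, plus strand) was followed by S100a14 (chr3:90526856-90528837, plus), S100a4 (chr3:90603771-90606045, plus) and S100a6 (chr3:90612882-90624181, plus). S100a8 (chr3:90668978-90670035, plus) and S100a9 (chr3:90692632-90695721, minus) came next, and S100a11 (chr3:93520488-93526287, plus) and S100a10 (chr3:93555080-93564643, plus) lay further along. All are annotated as protein coding. S100a4 overlaps Gm42674 on the same strand, and that entry of the deposited list held 0 UMIs in the cells kept.

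The promoters of the 2 pairs of members whose levels were most alike over all classes and libraries, S100a8 with S100a9 and S100a4 with S100a6, are printed here so that each pair can be compared. Each is the 250 bases before the RefSeq transcription start (GRCm38.p6), 5′ to 3′ on the gene's strand. Capitals mark matches to TATAAA, to the C/EBP-type motif TTGCNNAA or to GGGCGG, searched on both strands.
S100a4, chr3:90603520-90603769, plus strand: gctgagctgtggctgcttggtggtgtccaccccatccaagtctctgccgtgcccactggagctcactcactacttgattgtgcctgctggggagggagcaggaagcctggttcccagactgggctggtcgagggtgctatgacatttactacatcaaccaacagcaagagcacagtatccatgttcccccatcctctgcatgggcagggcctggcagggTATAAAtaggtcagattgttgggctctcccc
S100a6, chr3:90612644-90612893, plus strand: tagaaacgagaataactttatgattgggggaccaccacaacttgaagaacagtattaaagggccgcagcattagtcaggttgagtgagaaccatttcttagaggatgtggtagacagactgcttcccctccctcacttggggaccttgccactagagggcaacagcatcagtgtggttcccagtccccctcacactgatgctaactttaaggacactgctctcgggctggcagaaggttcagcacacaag
S100a8, chr3:90668821-90669070, plus strand: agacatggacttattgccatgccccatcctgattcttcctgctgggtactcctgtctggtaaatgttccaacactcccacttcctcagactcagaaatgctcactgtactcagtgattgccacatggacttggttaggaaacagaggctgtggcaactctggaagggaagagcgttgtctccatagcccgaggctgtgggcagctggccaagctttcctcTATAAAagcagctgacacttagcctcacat
S100a9, chr3:90695722-90695971, minus strand: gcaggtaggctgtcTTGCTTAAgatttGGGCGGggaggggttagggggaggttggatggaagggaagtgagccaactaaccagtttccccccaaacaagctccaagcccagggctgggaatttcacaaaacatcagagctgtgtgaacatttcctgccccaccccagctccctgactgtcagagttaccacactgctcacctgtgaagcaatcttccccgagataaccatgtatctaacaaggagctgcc
TATAAA began 31 bases before the start of S100a4 and 30 bases before that of S100a8, and it occurs in 12.4% of 32851 RefSeq promoter windows of this length. TTGCNNAA, found 236 bases before the start of S100a9, occurs in 9.56% of them and GGGCGG in 32.7%. The S100a6 window held none of these motifs. A match in these windows is a description of the letters and not a measured binding site.

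The libraries differed in depth, and 4 of them shared cell barcodes, which bears on every keratinocyte value below. They held 497 to 2153 barcodes and 1032621 (P80) to 7491878 (P45) UMIs. A cell was given a class where it had UMIs of at least 2 markers of that class and of more markers of it than of any other; no S100 gene was among the markers. Of 6162 cells kept, 5100 (82.8%) had a class, written with "-like". All 8 markers of the T cell, dendritic cell, macrophage, monocyte, keratinocyte and fibroblast classes, and all 5 Langerhans cell markers, were higher in their own class than in other gated cells. The same markers set the classes, so this was largely fixed by the gate and does not test the class names. Only 2 of 8 neutrophil, 2 of 8 mast cell and 3 of 7 neural crest markers were higher in their class. Neutrophil-like cells numbered 1, so this class could not be described. Over the P50, P63, P80 and P50_Depil5D libraries, 251 barcodes occurred in more than 1 library, and 133 of them in all 4. Of these cells 72.1% were keratinocyte-like, and 115 barcodes were keratinocyte-like in all 4 libraries. The pairs of these libraries shared 134 to 193 barcodes, whereas P45 shared at most 7 with any other. Their keratinocyte-like cells are therefore not shown to be separate cells, and values without shared barcodes are given beside the member levels and contrasts that use them. The CD45 sort should leave out keratinocyte-like cells, which made up 18.3% of the cells kept and 47.7% at P80. How they came to be captured was not tested. Keratinocyte-like cells numbered 267 (P45), 209 (P50), 207 (P63), 233 (P80) and 209 (P50_Depil5D), and 142, 142, 168 and 132 of those in the last 4 libraries had a shared barcode. T cell-like cells, where 1 to 12 cells per library were shared, numbered 422, 648, 163, 74 and 713 in the same order. Dendritic cell-like cells numbered 427, 174, 44, 46 and 242, and macrophage-like cells 329, 113, 37, 30 and 45.

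S100a4, the myosin-binding member associated with motile and mesenchymal cells, was high in leukocytes and low in keratinocyte-like cells. Its level in T cell-like cells, in UMIs per 1000000 UMIs of the class (CPM), was 2136 (P45), 3416 (P50), 1594 (P63), 1516 (P80) and 2879 (P50_Depil5D). Dendritic cell-like cells had 1872, 2525, 1325, 1881 and 2537 CPM of S100a4 in the same library order, which is kept below. P50 and P50_Depil5D were the highest libraries in both classes. Macrophage-like cells were flatter, at 1312, 1252, 1411, 1198 and 1681 CPM. Keratinocyte-like cells held only 280.3, 239.7, 105, 147 and 176 CPM, and no keratinocyte-like value came near any value of these 3 classes. Without shared barcodes the keratinocyte values were 279.9, 345, 154, 450.1 and 234 CPM, still under all those of the 3 classes. T cell markers were detected in these keratinocyte-like cells too, with a summed level over the 8 markers of 200 to 705 CPM, and 276 to 988 CPM without shared barcodes; the part of this in their S100a4 was not tested. Fibroblast-like cells, also a class the CD45 sort should leave out, had 1857 CPM of S100a4 at P45 (75 cells) and 1486 CPM at P50 (18 cells), within the leukocyte range. In the order T cell-like (2308 ± 825, SD, n = 5 libraries), dendritic cell-like (2028 ± 511), macrophage-like (1371 ± 190.3) and keratinocyte-like (189.5 ± 70.5), only the last step had the same sign in 5 of 5 libraries (2.86 ± 0.60 on a log2 scale). A step of such an order is called larger than its spread below only where it did so.

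**Figure D1:**
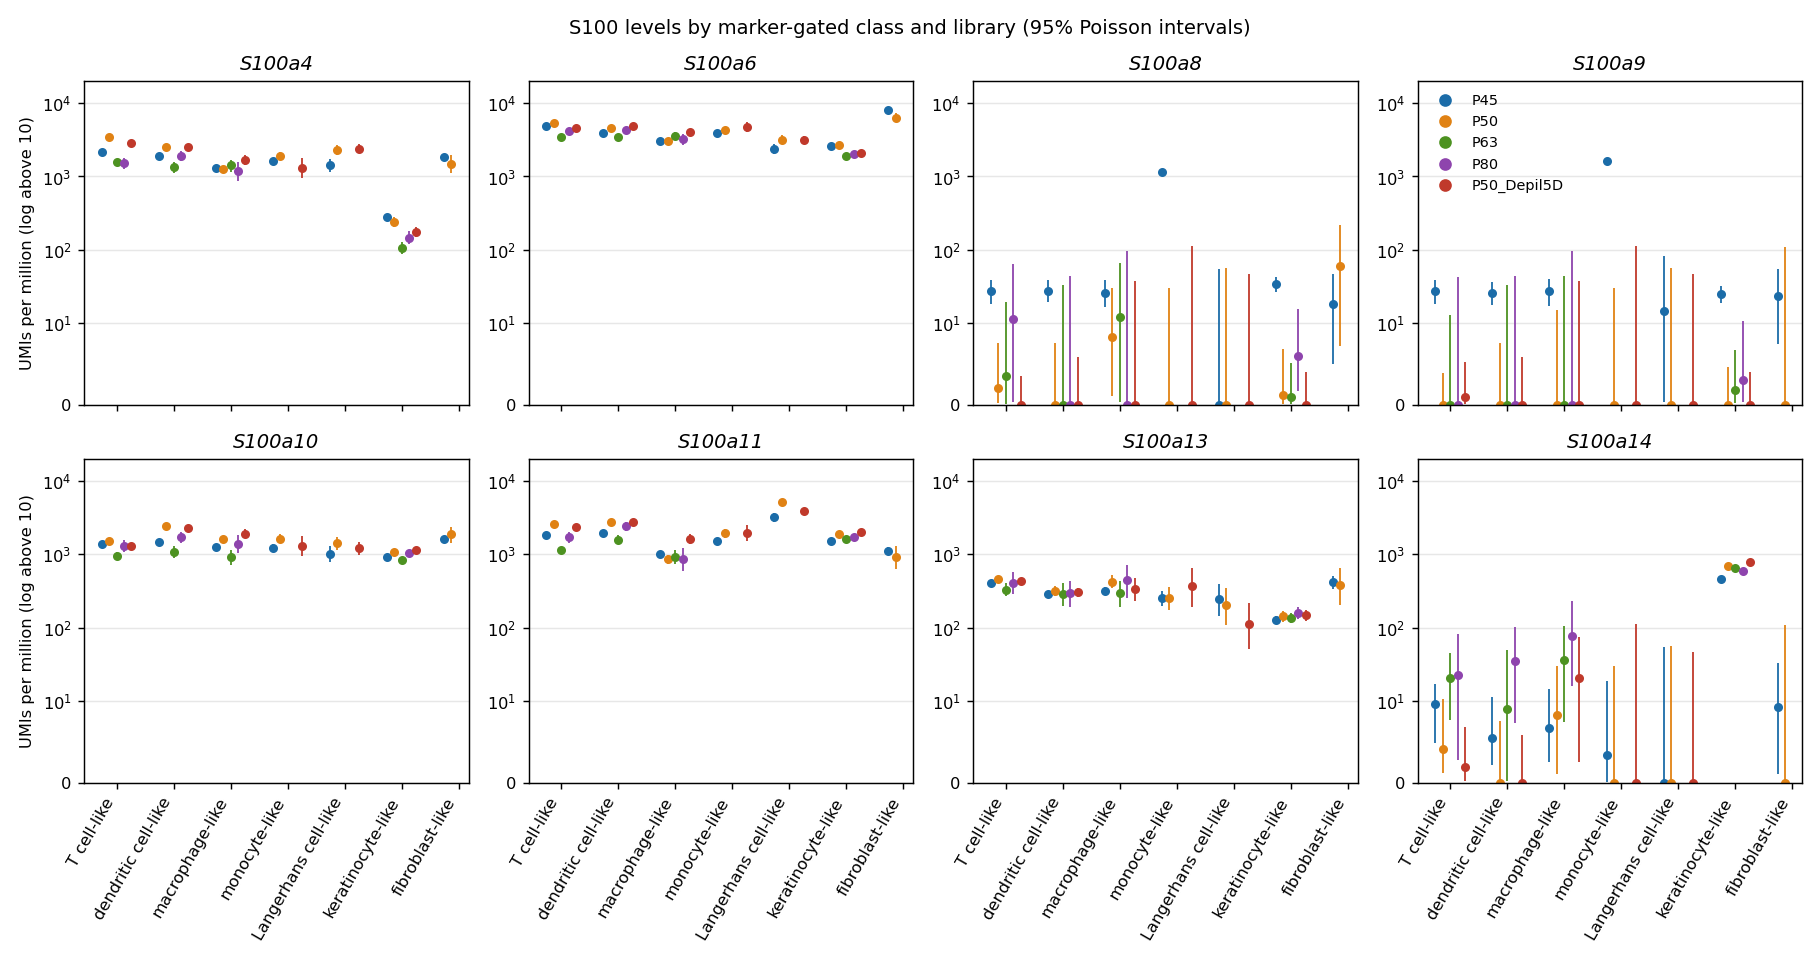
Level of each S100 gene (CPM on a scale that is logarithmic above 10) in 7 marker-gated classes, 1 point per library with at least 15 cells of the class and its exact 95% Poisson interval, which covers counting error only. S100a14 sits between 468 and 786 CPM in keratinocyte-like cells and at most 78.1 CPM in the other classes plotted, whereas S100a4 is lowest in keratinocyte-like cells.

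S100a6, or calcyclin, a calcium sensor of proliferating and mesenchymal cells, was detected in all 14 classes. T cell-like cells had 4819, 5309.9, 3409, 4126 and 4514 CPM, and dendritic cell-like cells 3948, 4645, 3461, 4233 and 4867 CPM. Macrophage-like cells followed at 3029, 3036, 3562, 3204 and 4027 CPM, and keratinocyte-like cells at 2633, 2644, 1907, 1999.9 and 2087 CPM. Fibroblast-like cells lay above all of these, at 7978 CPM at P45 and 6362 CPM at P50. T cell-like cells were above dendritic cell-like cells in 2 of 5 libraries, and these above macrophage-like cells in 4 of 5, so neither step held in every library. Macrophage-like cells were higher than keratinocyte-like cells in 5 of 5 libraries, by 0.58 ± 0.36 on a log2 scale. Without shared barcodes keratinocyte-like cells had 2634, 3007, 1993, 3088 and 2108 CPM and were still under macrophage-like cells in each library, at P50 only just (3045 CPM).

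With all gated cells S100a10, the annexin A2 partner also called p11, was highest in dendritic cell-like cells among the 4 classes with at least 20 cells in every library. These had 1474, 2405, 1073, 1717 and 2314 CPM in the same library order, against 1280.2, 1605, 920.5, 1406 and 1927 CPM in macrophage-like cells. The dendritic cell-like value was the higher in 5 of 5 libraries, by 0.31 ± 0.16 (log2, SD), which exceeds its spread. T cell-like cells had 1400.3, 1514, 955, 1299 and 1299 CPM and did not differ from macrophage-like cells beyond the spread. Keratinocyte-like cells were lowest, at 925, 1076, 849, 1044 and 1139.9 CPM, and under T cell-like cells in 5 of 5 libraries. This order did not hold without shared barcodes. Keratinocyte-like cells then had 927, 1134, 783, 1413 and 1180.0 CPM, above T cell-like cells at P80 (1368 CPM) and above macrophage-like cells at P63 (639.8 CPM). Dendritic cell-like cells were then under T cell-like cells at P63 (868 against 1018 CPM). At P80 they stood only just above macrophage-like cells (1792 against 1768 CPM). Outside the 4 classes, fibroblast-like cells at P45 had 1626 CPM, more than the dendritic cell-like cells of that library.

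S100a11, or calgizzarin, a partner of annexin A1 that is known from cornified epidermis, was highest in Langerhans cell-like cells, the dendritic cells of the epidermis. Their level was 3191 CPM at P45 (23 cells), 5158 CPM at P50 (20 cells) and 3885 CPM in P50_Depil5D (26 cells). The dendritic cell-like class had 1955, 2764, 1595, 2411 and 2732 CPM, and T cell-like cells 1851, 2561, 1150.4, 1709.6 and 2378 CPM. Dendritic cell-like cells were above T cell-like cells in 5 of 5 libraries, by 0.27 ± 0.20 (log2). Keratinocyte-like cells, at 1542, 1926, 1627, 1751 and 2018 CPM, did not differ from T cell-like cells beyond the spread. Macrophage-like cells were lowest, with 1022, 858, 932, 859 and 1619 CPM, and lay under keratinocyte-like cells in 5 of 5 libraries by 0.77 ± 0.34 (log2). Without shared barcodes keratinocyte-like cells had 1541, 1997, 1902, 1776 and 2121 CPM and were again above macrophage-like cells in each library.

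S100a13, known for its part in the release of FGF1 and IL-1α by a route that bypasses the secretory pathway, was lower in keratinocyte-like cells than in T cell-like, macrophage-like and dendritic cell-like cells. T cell-like cells had 409.9, 458, 332, 410.3 and 428 CPM, macrophage-like cells 322, 427, 299, 443 and 338 CPM, and dendritic cell-like cells 285, 317, 288, 294 and 307 CPM. Keratinocyte-like cells had 127, 143, 137, 161 and 149 CPM, below every value of those 3 classes. Without shared barcodes they had 128, 145, 203, 113 and 152 CPM, more spread but still below the other 3 classes, and the value at P80 came from 9 UMIs. The Langerhans cell-like cells of P50_Depil5D were as low, at 113.5 CPM from 9 UMIs. With all gated cells, the coefficient of variation of its level over the 5 libraries was the lowest of the 8 members in T cell-like (11.4%), dendritic cell-like (4.52%) and keratinocyte-like cells (8.69%), but not in macrophage-like cells (17.7%), where that of S100a6 was 12.6%. The keratinocyte-like figure rests largely on shared barcodes. Without them the values spread more, as given above, and this ranking was not computed. Of the cargo, Fgf1 held 39 UMIs and Il1a 8 UMIs in all cells, too few to compare.

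S100a14, an epithelial member, was confined almost wholly to keratinocyte-like cells among the classes measured. Their level was 468, 703, 657, 589.6 and 786 CPM, from 393 to 1021 UMIs. T cell-like cells had 9.68, 4.17, 21.0, 22.8 and 1.88 CPM from 2 to 11 UMIs, and the 80 Langerhans cell-like cells together had 0 UMIs (upper 95% Poisson bound 15.8 CPM). At 1000 UMIs per cell, 31.8% of keratinocyte-like cells at P45 had a UMI of S100a14, and 42.7% to 49.2% in the other libraries, against 0.329% to 6.06% of T cell-like cells. Before thinning these shares were 58.4% to 79.8% and 0.281% to 3.68%, at median depths of 1724 to 5102 and 955 to 2249.5 UMIs per cell. Thinning left out 0 to 64 keratinocyte-like and 0 to 169 T cell-like cells per library. Without shared barcodes the keratinocyte-like level was 468, 700.2, 643, 400.1 and 783 CPM.

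In leukocyte classes the low S100a14 level stood beside keratinocyte markers found in the same classes, and with all gated cells both were highest at P80. In macrophage-like cells S100a14 was 6.76, 8.29, 35.9, 78.1 and 20.5 CPM, from 2 to 6 UMIs each. The P80 value came from 3 UMIs in 1 cell. The 8 keratinocyte markers summed to 222, 104, 371, 1771 and 195 CPM there, with 8, 6, 5, 8 and 6 of them detected, and to 222, 29.9, 279.9, 631 and 41.9 CPM without shared barcodes. In T cell-like cells the same markers summed to 83.3 CPM at the lowest (P50) and 695 CPM at the highest (P80), and in dendritic cell-like cells to 30.9 CPM (P50) and 494 CPM (P80). No keratinocyte marker was at 0 over all 5 libraries in any of these classes. Without shared barcodes the macrophage-like cells at P80 and in P50_Depil5D held 0 UMIs of S100a14, and its highest value in this class was at P63 (39.99 CPM from 2 UMIs). In T cell-like and dendritic cell-like cells it was still highest at P80 (28.8 and 46.0 CPM, from 2 UMIs each). The part of keratinocyte RNA or of mixed droplets in these values was not tested.

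**Figure D2:**
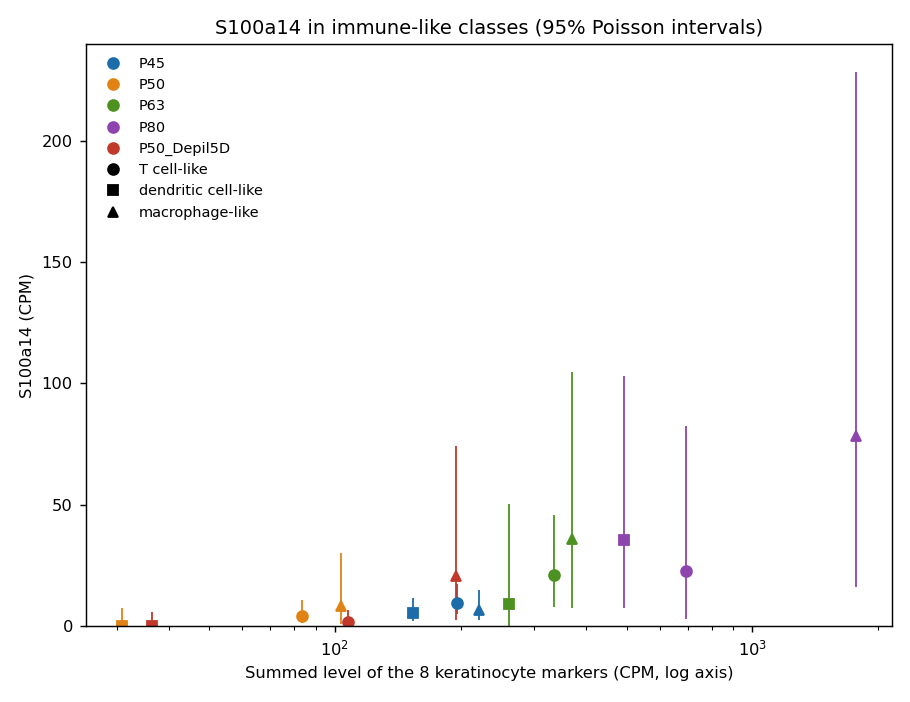
S100a14 (CPM, with 95% Poisson intervals) against the summed level of the 8 keratinocyte markers (CPM, log axis) in T cell-like, dendritic cell-like and macrophage-like cells of each library. The P80 macrophage-like cells have both the highest marker sum, 1771 CPM, and the highest S100a14, 78.1 CPM from 3 UMIs in 1 cell.

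Keratinocyte-like cells were set against immune-like cells, the sum of the T cell, NK cell, macrophage, monocyte and dendritic cell classes, within each library. S100a4 was lower in keratinocyte-like cells in 5 of 5 libraries, by 3.42 ± 0.47 on a log2(CPM + 10) scale, the largest deficit among the members. S100a13 was lower by 1.27 ± 0.12, S100a6 by 0.89 ± 0.20 and S100a10 by 0.51 ± 0.19, each in 5 of 5 libraries. S100a14 was higher in 5 of 5 libraries by 4.97 ± 0.94. S100a11 did not differ beyond its spread, at -0.06 ± 0.29 (5 libraries, exact sign-flip p = 0.688). The exact two-sided sign-flip test over 5 libraries gave p = 0.063 for each of these 5 members, the smallest p this design allows, and 0.167 after Benjamini-Hochberg adjustment over 16 tests, so none passed 0.05.

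A model fitted across 9102 genes, edgeR's quasi-likelihood test with the library as a block, called 1 member higher and 6 lower in keratinocyte-like cells at an adjusted p under 0.05. In this contrast 26.2% of all genes tested were called higher and 29.4% lower, so a call alone does not set a member apart. The adjusted p was 6.32e-10 for S100a4, 2.31e-07 for S100a13, 2e-06 for S100a6, 0.000784 for S100a10 and 3.65e-09 for S100a14, and S100a11 was not called (0.472). The calls of S100a8 (0.000567) and S100a9 (0.000518) were lost without the few cells rich in them, with adjusted p-values of 0.248 and 0.252. Without shared barcodes, S100a4 was lower in keratinocyte-like cells by 2.83 ± 0.65 and S100a14 higher by 4.98 ± 1.07, again in 5 of 5 libraries, and edgeR gave adjusted p-values of 8.71e-09 and 6.43e-09. S100a6 (adjusted p 0.00011), S100a10 (0.0054) and S100a13 (4.47e-06) also stayed called in that edgeR fit, where 23% of genes were called higher and 24.1% lower.

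**Figure D3:**
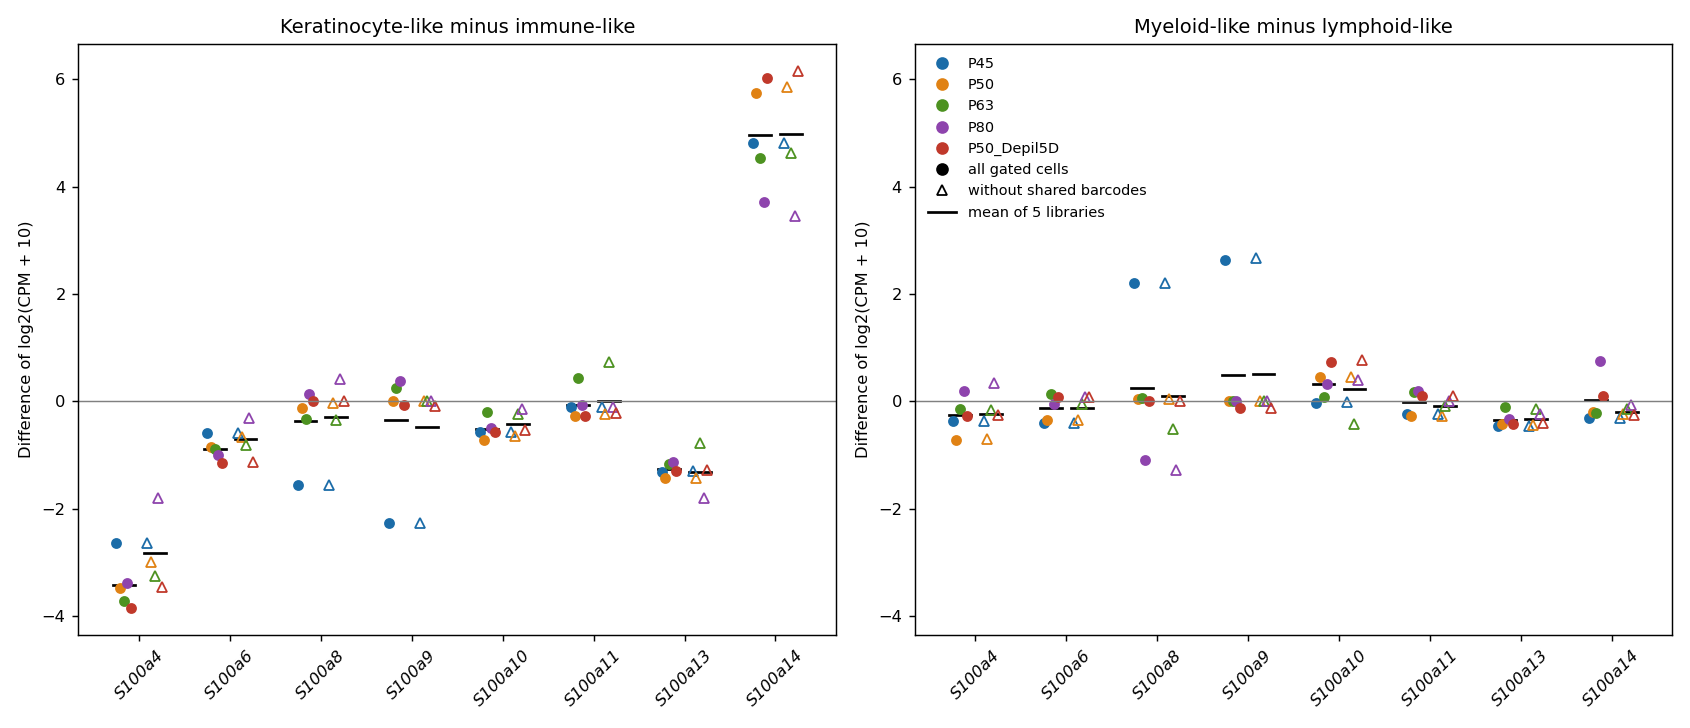
Difference in log2(CPM + 10) between keratinocyte-like and immune-like cells (left) and between myeloid-like and lymphoid-like cells (right), 1 point per library, with all gated cells (filled circles) and without shared barcodes (open triangles); bars are means of 5 libraries. S100a14 is above 0 and S100a4 below 0 in every library on the left, while S100a8 and S100a9 stand apart at P45 on the right.

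Within the immune-like cells, the members differed little between myeloid-like cells (macrophage, monocyte and dendritic cell classes) and lymphoid-like cells (T and NK cell classes). S100a10 was higher in myeloid-like cells in 4 of 5 libraries, by 0.31 ± 0.30, and S100a13 was lower in 5 of 5, by 0.35 ± 0.15. S100a4 (-0.26 ± 0.33), S100a6 (-0.12 ± 0.25) and S100a11 (-0.01 ± 0.23) did not differ beyond their spread. These directions rest on scaling by total UMIs. TMM scaling moved all genes in this contrast by 0.39 (log2) on average and median-of-ratios scaling by 0.40, and under both of them S100a4, S100a6, S100a11 and S100a13 came out higher in myeloid-like cells. S100a10 was higher in myeloid-like cells under every scaling. The edgeR fit, which uses TMM, called S100a10 higher (0.72, adjusted p = 0.00662) beside 19.6% of 7905 genes called higher and 20.9% lower, but not without shared barcodes, where S100a10 was higher in 3 of 5 libraries by 0.23 ± 0.46 (fold in the fit 0.52, edgeR adjusted p = 0.0542, where 15.5% were called higher and 22% lower). It also called S100a8 (adjusted p = 0.00178) and S100a9 (0.000366) higher, calls that were lost without the cells rich in them (0.665 and 0.73).

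Calprotectin transcripts were rare and lay mostly in 6 cells, 5 of them from P45. Over 6162 cells there were 592 UMIs of S100a8 and 697 of S100a9. Only 6 cells held at least 10 UMIs of the pair together, and these contained 62.8% of all S100a8 and 73.6% of all S100a9 UMIs. The richest was a monocyte-like P45 cell with 185 UMIs of S100a8 and 363 of S100a9. Further monocyte-like P45 cells had 93 and 62, and 45 and 39 UMIs. A keratinocyte-like P45 cell had 25 and 18, and an ungated P45 cell 16 and 19. The only such cell outside P45 was the neutrophil-like cell of P50, with 8 and 12 UMIs. The next cell in order, a monocyte-like P45 cell, held 5 UMIs of S100a8 and 4 of S100a9, just under the cut of 10. The lowest of the 6 held 8 and 12. Of the P45 cells outside the group, 8.28% had a UMI of S100a8 and 7.77% one of S100a9.

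Of these 6 cells, 4 carried neutrophil granule transcripts: the 3 monocyte-like cells and the keratinocyte-like cell of P45. They held 304 of the 330 UMIs of Ngp, which encodes neutrophilic granule protein, and 182 of the 206 UMIs of Camp, the cathelicidin gene, in that library. The richest cell also had 40 UMIs of Ltf (lactoferrin) and 48 of Lcn2 (lipocalin 2). The monocyte-like cells with 93 and 45 S100a8 UMIs had 23 and 15 UMIs of Elane and 5 and 9 of Mpo, which encode elastase and myeloperoxidase of the primary granule. The 3 monocyte-like cells each had 4 of 8 monocyte markers and 3 of 8 neutrophil markers. Their class name is only that of the gate, and the granule transcripts they held go against it. The ungated P45 cell and the P50 neutrophil-like cell had 0 UMIs of all 9 granule genes listed, and the latter was gated by 2 other neutrophil markers.

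**Figure D4:**
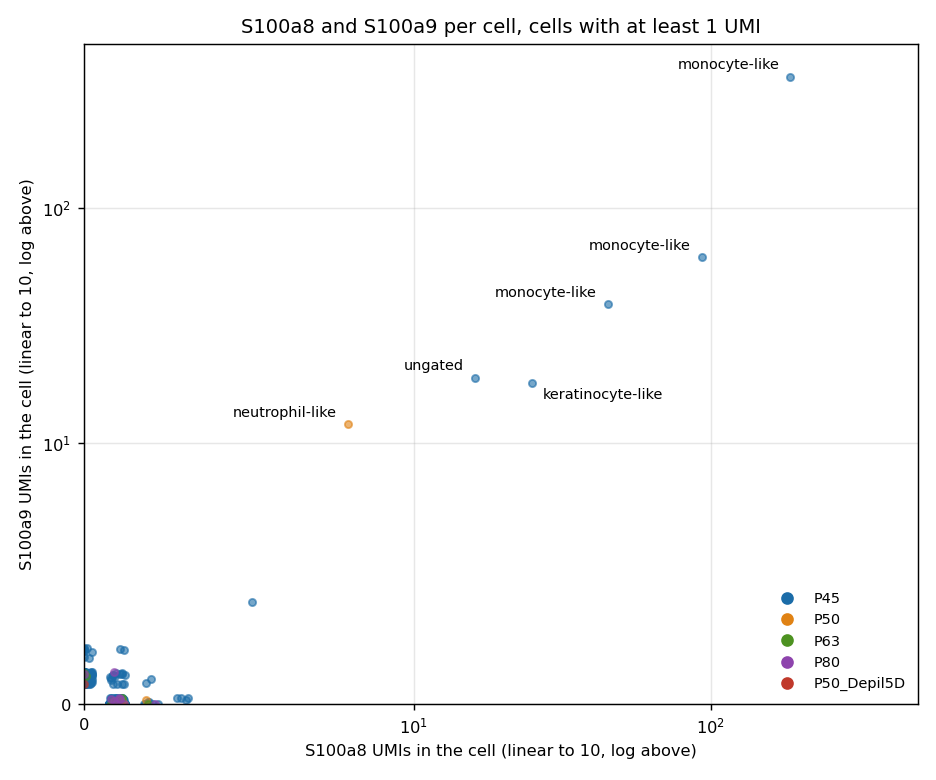
UMIs of S100a8 and S100a9 in each cell with at least 1 UMI of either (axes linear to 10 and logarithmic above; low points jittered), coloured by library and labelled with the class for the 6 cells of at least 10 UMIs in all. These cells lie along a rising band from 8 and 12 UMIs to 185 and 363 UMIs, and the others hold at most 5 UMIs of S100a8 and 4 of S100a9.

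Those cells set the P45 monocyte-like level. With them it was 1146 CPM of S100a8 and 1629 CPM of S100a9 over 108 cells, and without the 3 cells 48.8 CPM (95% Poisson interval 26.7 to 81.9) and 52.3 CPM (29.3 to 86.2). Outside the rich cells, S100a8 at P45 was 27.3 CPM in T cell-like, 27.6 in dendritic cell-like, 25.9 in macrophage-like, 22.5 in keratinocyte-like and 18.5 in fibroblast-like cells, and the intervals of these classes overlap. S100a9 was 27.3, 26.0, 27.0, 16.5 and 23.1 CPM in the same class order, and its intervals in these classes overlap too. No difference between these classes is read from these levels. The S100a9 interval of keratinocyte-like cells (11.6 to 22.9) did not overlap that of monocyte-like cells given above. Of the 15 S100a9 UMIs behind that monocyte-like value, 4 came from 1 cell, and the intervals without it were not compared. The source of the UMIs outside the rich cells was not tested. Over all P45 cells but the rich ones the levels were 26.4 CPM for S100a8 and 24.0 for S100a9. They were 2.17 and 0 CPM at P50, 3.77 and 1.08 at P63, and 8.83 and 1.96 at P80. The P50_Depil5D library of 1494 cells held 0 UMIs of S100a8 and 1 of S100a9.

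Other genes of the family and known partners were counted from lists chosen with earlier results of these data known. Of 9 further genes with an S100 symbol, 3 had enough UMIs for the edgeR test. S100a16, another epithelial member, was higher in keratinocyte-like cells (442 ± 49.7 against 14.6 ± 17.7 CPM, n = 5; edgeR adjusted p = 5.79e-09), as S100a14 was. Without shared barcodes it was 387 ± 31.3 against 12.8 ± 16.2 CPM (edgeR adjusted p = 7.77e-09). S100a1, a member best known from muscle, was higher in myeloid-like than in lymphoid-like cells (120 ± 13.97 against 27.1 ± 21.4 CPM; edgeR adjusted p = 7.04e-05). It was lower in keratinocyte-like than in immune-like cells (44.2 ± 13.8 against 74.3 ± 8.47 CPM; edgeR adjusted p = 0.00224), a call lost without shared barcodes (56.6 ± 6.39 against 67.9 ± 15.6 CPM; 0.265). S100pbp, which encodes a binding protein of S100P, was not called in either contrast. The median edgeR log2 fold in keratinocyte-like cells was -1.17 for the 8 members, -0.26 for these 3 genes and -0.00447 for all genes tested.

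Of 13 partner and receptor genes, 9 could be tested. In keratinocyte-like cells 1 was called higher by edgeR, Anxa1 (annexin A1, the S100a11 partner; adjusted p = 0.00263), and 4 lower: Anxa5, Anxa6, Anxa11 and the fatty acid receptor gene Cd36. Of all genes tested 26.2% were called higher and 29.4% lower in this contrast, so these counts do not set the partner genes apart. The 5 partner genes were also called, in the same directions, by the edgeR fit without shared barcodes (adjusted p = 0.000464 for Anxa1). In that fit 23% of all genes were called higher and 24.1% lower. Anxa2, whose product joins that of S100a10, was 945 ± 138 CPM in keratinocyte-like and 783 ± 177 in immune-like cells and was not called (0.0977), but it was called higher without shared barcodes (1009.8 ± 214 against 761 ± 204 CPM; edgeR adjusted p = 0.0203). With all gated cells Anxa2 was higher and S100a10 lower in keratinocyte-like cells, each in 5 of 5 libraries. In myeloid-like cells Anxa1, Anxa2, Anxa5, Ahnak and Cd36 were called higher than in lymphoid-like cells, and Anxa6, Anxa11 and the non-muscle myosin gene Myh9 lower. Of all genes tested 19.6% were called higher and 20.9% lower in myeloid-like cells. Anxa2 was 874 ± 150.5 against 686 ± 227 CPM there (edgeR adjusted p = 0.00176), the direction also seen for S100a10 in this contrast but not in the first. Anxa6 was 47.8 ± 14.005 against 182 ± 36.5 CPM (edgeR adjusted p = 5.5e-05). The median fold of the 9 was -0.20 in the first contrast and 0.79 in the second, beside -0.00447 and -0.08 over all genes tested. The calprotectin receptor genes Ager and Tlr4 held 6 and 26 UMIs in all cells and were not testable. Of 9 neutrophil granule genes, 2 could be tested in each contrast. Ngp was called lower in keratinocyte-like cells (edgeR adjusted p = 0.000118), and its UMIs lay in the P45 cells described above.

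The depilation label was compared with P50 in the 6 classes that had at least 15 cells in both libraries. None of the 31 member and class pairs at 50 CPM or more passed 2-fold. The rest of the 48 pairs lay under 50 CPM and did not pass either. Among genes at 50 CPM or more, 10.5% passed over the same classes. By class that share was 0.417% in T cell-like, 0.86% in keratinocyte-like, 1.46% in dendritic cell-like, 13% in macrophage-like, 19.2% in Langerhans cell-like and 28.8% in monocyte-like cells, so in the first 3 classes few genes passed at all. The largest ratio at that level was S100a11 in macrophage-like cells, 1619 against 858 CPM, a ratio of 1.89 with an exact 95% interval of 1.52 to 2.33. In the same cells S100a4 was 1.34 times higher (1.10 to 1.63) and S100a6 1.33 times (1.17 to 1.502). T cell-like cells moved the other way, with ratios of 0.843 (0.802 to 0.886) for S100a4, 0.85 (0.817 to 0.884) for S100a6 and 0.858 (0.796 to 0.924) for S100a10. In dendritic cell-like cells no interval excluded 1. Keratinocyte-like cells had ratios of 0.732 (0.59 to 0.908) for S100a4 and 0.789 (0.742 to 0.84) for S100a6, and 0.679 (0.54 to 0.855) and 0.701 (0.65 to 0.756) without shared barcodes. Langerhans cell-like S100a11 had a ratio of 0.753 (0.643 to 0.882). These intervals cover counting error only, and with 1 library on each side the difference between mice or captures and that between labels cannot be told apart.

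From P45 to P80, 9 of 32 member and class pairs passed 2-fold. All 9 were S100a8, S100a9 or S100a14 with 0 to 4 UMIs at P80. None of the 21 pairs at 50 CPM or more passed, beside 13.2% of genes at that level. S100a4 in T cell-like cells was 2136 CPM at P45 and 1516 at P80, a ratio of 0.71 (0.591 to 0.845). S100a4 in keratinocyte-like cells had a ratio of 0.524 (0.419 to 0.65) with all cells and of 1.61 (1.12 to 2.25) without shared barcodes, from 36 UMIs at P80, so its direction depended on the shared barcodes. S100a6 in these cells turned likewise, from 0.76 (0.715 to 0.806) to 1.17 (1.03 to 1.33). S100a14 in keratinocyte-like cells had a ratio of 1.26 (1.12 to 1.42), and of 0.855 (0.582 to 1.22) without shared barcodes.

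Between P50 and P63 most members at 50 CPM or more were lower at P63 outside macrophage-like cells. Of 21 such pairs 18 were lower, beside 56% of all genes at that level, and in 14 of them the interval excluded 1, beside 17.2% of all genes. The median of all genes was itself below 0 on the log2 scale, at -0.16 in T cell-like, -0.0681 in macrophage-like, -0.0639 in dendritic cell-like and -0.0398 in keratinocyte-like cells. The pairs past 2-fold were S100a4 (ratio 0.467, 0.422 to 0.515) and S100a11 (0.449, 0.399 to 0.504) in T cell-like cells, S100a10 in dendritic cell-like cells (0.446, 0.366 to 0.539) and S100a4 in keratinocyte-like cells (0.438, 0.345 to 0.555). Over the same classes 13.4% of genes passed 2-fold. Without shared barcodes these 4 ratios past 2-fold were 0.477, 0.461, 0.36 and 0.446. In macrophage-like cells 3 of 5 went the other way: S100a6 at 1.17 (1.02 to 1.34), S100a4 at 1.13 (0.903 to 1.40) and S100a11 at 1.09 (0.826 to 1.42). Of these only the S100a6 interval excluded 1, and it did not without shared barcodes (1.14, 0.962 to 1.35). S100a10 was lower in macrophage-like cells, at 0.574 (0.443 to 0.734). Without shared barcodes it was 0.397 (0.268 to 0.57), which is past 2-fold. Between P45 and P50, 28 of 38 such pairs were higher at P50, beside 52.5% of all genes, where 14.5% of genes passed 2-fold. From P63 to P80, 16 of 21 were higher at P80, beside 49.4% of all genes, where 15.1% passed 2-fold. These comparisons share libraries, and their counts of pairs use all gated cells. In keratinocyte-like cells the ratio of S100a4 at P50 to P45 was 0.855 (0.724 to 1.01), and 1.23 (1.03 to 1.465) without shared barcodes. Its ratio at P80 to P63 was 1.40 (1.06 to 1.85), and 2.93 (1.68 to 5.22) without them. Median depth in T cell-like cells was 2249.5 UMIs per cell at P45, 1175.5 at P50 and 1386 at P63, and its part in the differences was not tested.

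**Figure D5:**
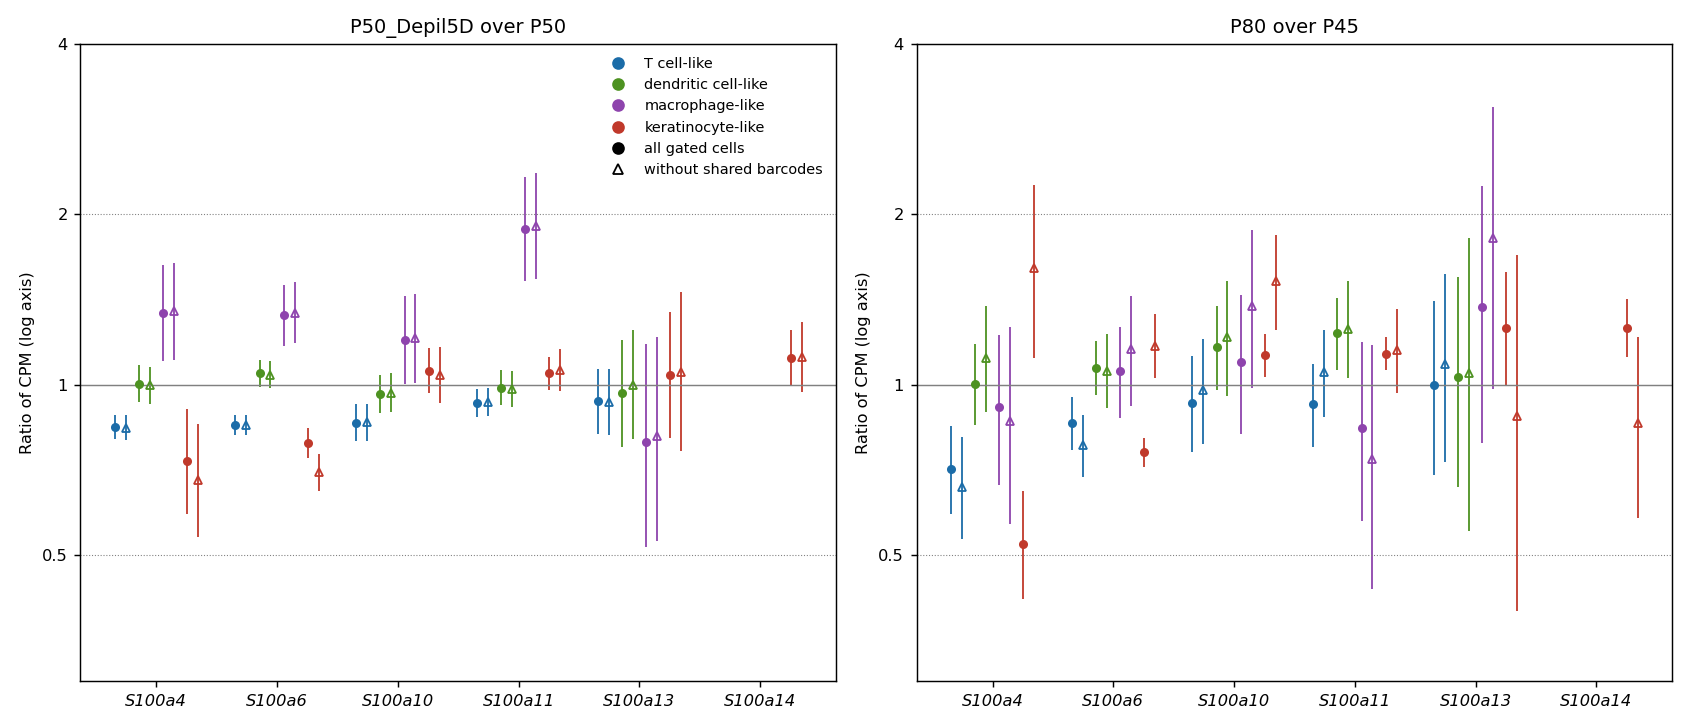
Ratio of CPM between P50_Depil5D and P50 (left) and between P80 and P45 (right) for 6 members in 4 classes (log axis, exact 95% intervals that cover counting error only), with all gated cells (circles) and without shared barcodes (triangles); S100a14 is drawn for keratinocyte-like cells alone and dotted lines mark 2-fold. Macrophage-like S100a11 is the highest point on the left at 1.89, and keratinocyte-like S100a4 on the right changes sides of 1 without shared barcodes.

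Across 26 points, each a class in a library with at least 20 cells, the levels of the members on a log2(CPM + 10) scale were compared with those of 2178 genes at 50 CPM or more. The points share libraries, depth and, for keratinocyte-like cells, barcodes, so these correlations are descriptions. S100a4 was most like Emp3 (Pearson r = 0.97), Cd52 (0.96) and Vim (0.96), a leukocyte surface gene and the vimentin gene among them. S100a6 was most like Ppib (0.85), Lgals1 (0.82) and S100a4 (0.78). S100a14 was most like Clca3a2, Serpinb5 and Itga6 (each 0.97), the last of which encodes the integrin alpha-6 chain of basal keratinocytes. S100a13 was most like Cotl1 (0.86), Trf (0.85) and Dok2 (0.84). S100a10 (Got1, Selk and Atp5h, 0.73 to 0.78) and S100a11 (Mrpl43, Ube2e3 and Il1r2, 0.73 to 0.78) had less close neighbours. S100a8 and S100a9 were most like each other among the members (0.95, and 0.85 without the 6 cells rich in them). That likeness lay mostly in P45, with r = 0.97 over its 7 points and 0.13 over the 19 points of the other libraries, where both genes were near 0. Among genes at 50 CPM or more their nearest were Hbb-bs (0.65 and 0.72), a haemoglobin gene, Ccl21a (0.64 and 0.66) and the gate marker Plac8 (0.59 and 0.62). S100a4 and S100a14 were the most opposed members (-0.94), and the chromosomal neighbours S100a13 and S100a14 had r = -0.58.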

How the data were processed

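Processed data were 5 single-cell libraries of UMI counts. Per the labels' protocols, CD45+ live cells were captured on the 10x Genomics platform. The deposited count matrices hold whole UMIs per gene and cell; per the submitters' processing notes the build was mm10 and Seurat was used, with no role or version. For the aligner and the cell-calling rule, the answer is: not given in the sources used here.

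Of 6223 barcodes, 61 were removed because over 10% of their UMIs were mitochondrial; none had under 200 genes. Doublets were not called, so some must be taken to remain. Each cell was gated by markers of 14 classes (at least 2 markers, more than of any other class), and 450 tied cells stayed ungated, among 1062 in all. Names were rebuilt from markers and may differ from the study's. UMIs were summed per class and library and scaled to CPM. Class differences in log2(CPM + 10) were tested within libraries by an exact two-sided sign-flip permutation test, with at least 20 cells on each side. As an alternative, edgeR 4.0.16 quasi-likelihood fits (TMM, library as block, Benjamini-Hochberg adjustment) were run across all genes that passed its expression filter; all 8 members passed. P-values measure the spread between libraries, 4 of which share barcodes. On simulated data with 200 changed genes, the keratinocyte fit (9107 genes) recovered 25% of 2-fold and 99% of 4-fold changes with 3 false calls, and the myeloid fit (8000 genes) 27% and 99% with 4. Simulated counts were drawn independently for each library and side, with the same dispersion for every gene. They held no shared barcodes and far fewer changed genes than the real fits called, so they give no error rate for the real fits. Library ratios carry exact conditional 95% intervals and use classes with at least 15 cells. Intervals cover counting error only. Shares of cells were also computed with each cell thinned to 1000 UMIs. Columns of other samples numbered 0. Named genes were the members, 3 fixed lists and the 3 genes most correlated with each member. The members and lists were chosen with earlier results of these data known. Alternatives varied the gate, shared barcodes, depth, scaling, pseudocount, test and libraries. Protein sequences and the promoters of S100a10 and S100a14 were not used here. A comparison of subsets of T cell-like cells is not reported here.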

Additional observations from a re-analysis of the deposited data

How the results depend on the processing

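Directions of S100a4, S100a6, S100a10, S100a13 and S100a14 between keratinocyte-like and immune-like cells were the same under all 16 alternatives run for each, with ranges of -3.83 to -2.83, -0.97 to -0.70, -0.61 to -0.29, -1.32 to -1.08 and 3.45 to 6.05 (log2). Leaving out a library in turn gave no change of direction for these members. The edgeR fit with library as a block passed the threshold that the sign-flip test cannot reach at this n, for S100a4 (-3.53), S100a6 (-0.95), S100a8 (-1.74), S100a9 (-2.48), S100a10 (-0.57), S100a13 (-1.39) and S100a14 (6.28) in keratinocyte-like cells, and for S100a8 (2.34), S100a9 (3.06) and S100a10 (0.72) in myeloid-like cells.
Under TMM scaling, S100a11 was 0.00181 in keratinocyte-like against immune-like cells, and in myeloid-like against lymphoid-like cells S100a4 was 0.12, S100a6 0.27, S100a11 0.38 and S100a13 0.0282. Median-of-ratios scaling gave 0.14, 0.28, 0.39 and 0.0448, and edgeR 0.13, 0.28, 0.39 and 0.032, for the same 4 genes, so their direction depends on the scaling. S100a11 in keratinocyte-like cells was 0.014 without shared barcodes and 0.0328 with cells thinned to 1000 UMIs. In myeloid-like cells it was 0.15 with classes by cluster and 0.0452 with at least 500 genes per cell. S100a9 in keratinocyte-like cells was 2.88e-05 without the cells rich in S100a8 and S100a9 and 0.0509 with a pseudocount of 1. In myeloid-like cells S100a8 was -0.39 and S100a9 -0.0359 under the strict gate (at most 1 marker of any other class), -0.18 and -0.0076 without the rich cells, and S100a8 was -0.15 with a pseudocount of 1. S100a14 there was -0.47 under the strict gate, -0.27 by cluster, -0.20 without shared barcodes, -0.0321 thinned and -0.0547 with a pseudocount of 1. Its edgeR fold without shared barcodes was -0.53, and that of S100a13 -0.0772. The P80 to P45 log2 ratio of S100a14 in macrophage-like cells, from 9 UMIs in all, was -0.50 under the strict gate, -0.61 by cluster and -0.75 without shared barcodes. Members past 2-fold from P45 to P80 fell from 9 to 1 with a pseudocount of 50. Those from P50 to P50_Depil5D went from 0 to 1 with at least 3 markers, with thinning and with TMM scaling, to 2 by cluster and to 4 with a pseudocount of 1. Leaving out each library in turn, S100a9 in keratinocyte-like cells ranged from -0.53 to 0.14. In myeloid-like cells S100a8 ranged from -0.25 to 0.58, S100a9 from -0.0321 to 0.66, S100a11 from -0.0598 to 0.0587 and S100a14 from -0.16 to 0.11. The edgeR folds there ranged from -0.000618 to 0.18 for S100a4, -0.0877 to 0.0483 for S100a13 and -0.20 to 0.39 for S100a14. Without P45, S100a8 and S100a9 could not be fitted by edgeR. Except where given above, the cause of these changes was not tested. The low counts of S100a8, S100a9 and leukocyte S100a14 limit what depth can show. Between labels, no paired analysis was possible because each has 1 library and no replicate number; the comparisons of cell classes are themselves paired within libraries.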
